A study of Mus musculus with 8 samples.

Results

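The 3 wild type libraries of a study of the ubiquitin ligase Huwe1 were described here on their own, as the transcriptome of unperturbed mouse hematopoietic stem cells. They were chosen by genotype, as the samples labelled Huwe1 wild type, and make up 3 of the 8 libraries of the series. The other 5, from mice with a Huwe1 deletion, enter no value given here. The cells were taken from bone marrow, sorted as Lin-Sca+Kit+CD48-CD150+, not treated and not cultured, and lysed in Trizol. The labels name neither the age, sex or strain of the mice, nor the antibodies behind "Lin", nor whether the libraries came from separate animals, so the spread between libraries given below may be technical in part. Replicates 1, 2 and 3 are called wild type 1, 2 and 3, and sets of 3 values are in that order.

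Hematopoietic stem cells sit at the top of the blood hierarchy: they renew themselves and give rise to red cells, platelets, myeloid cells and lymphocytes. They are kept by a network of transcription factors such as Gata2, Runx1, Meis1, Hlf and Mecom, and by cytokine signals from the marrow niche, chief among them Kit ligand and thrombopoietin. The sort removes cells that carry lineage antigens and keeps those with Sca-1 (encoded by Ly6a), Kit and CD150 (Slamf1) but without CD48 (Cd48), a combination long used to enrich stem cells over multipotent progenitors.

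Levels are given in CPM, the reads of a gene divided by the total of its library and multiplied by 1000000. A gene collects reads in proportion to its length, so levels of different genes were compared only as CPM per kb of exon. Where a list is said to be led by a gene, or a gene to be highest or lowest by CPM, the order is by CPM and still carries length. The libraries held 29579400, 29758051 and 31338586 counts, and 15331 to 15554 genes had at least 1 count. Of 23358 genes in the table, 11839 (50.7%) reached 1 CPM in all 3 libraries and are called detected. A further 6760 genes had 0 counts in all 3, and 4759 lay between. A count of 0 allows up to 3 counts, which is 0.101, 0.101 and 0.0957 CPM in the 3 libraries and 0.0331 CPM over their sum, for counting error only. A 0 in this table is not by itself a gene without RNA. The glycolytic enzymes Eno1 and Gapdh, used by nearly every cell, were listed at 0 counts and at 4.53, 4.94 and 5.65 CPM. Both have many near-identical copies in the mouse genome, and how reads with several matches were counted is not given in the sources used here. The level of any gene with close copies is therefore uncertain.

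All 5 stem cell markers set for these cells were detected, in every library. Kit, the receptor for stem cell factor, stood at 1891, 1275 and 1385 CPM, with a mean of 1517 ± 328 (SD, n = 3) and 289 CPM per kb. Hlf, a PAR bZIP factor that marks primitive blood cells, had 721, 753 and 847 CPM, or 137 CPM per kb. Wild type 1 was highest for Kit and lowest for Hlf, and no library was highest for all the markers. Mecom, the zinc finger factor also called Evi1, had 239, 217 and 252 CPM, which was 36.4 CPM per kb. Slamf1, the CD150 antigen of the gate, had 70.0, 64.3 and 69.0 CPM with a mean of 67.8 ± 3.05 (SD, n = 3). Procr, the endothelial protein C receptor EPCR, had 59.8, 72.2 and 63.8 CPM. Per kb, Procr at 40.9 and Slamf1 at 25.2 were below Kit and Hlf but above the median of 12.2 over all detected genes, whose quartiles were 4.15 and 29.7. The highest library of each of the 5 markers was less than 2-fold above its lowest. This is the usual case, since only 1.95% of all genes at a mean of 10 CPM or more reached 2-fold.

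The 4 genes of the gate were detected too, including the one the sort selects against. Ly6a had 77.4, 98.3 and 79.2 CPM, a mean of 84.9 ± 11.6 (SD, n = 3). Cd48 had 15.1, 16.5 and 15.2 CPM, a mean of 15.6 ± 0.799 (SD, n = 3), and this low level was nearly the same in the 3 libraries. Per kb it came to 13.1, close to the median detected gene and below the 25.2 of Slamf1. Whether the Cd48 reads came from the sorted cells or from a few other cells was not tested. The labels do not list the lineage antibodies, so 8 genes of commonly used cocktails were read instead, and 2 of them were detected. Itgam (CD11b) had 9.70, 8.17 and 8.68 CPM, and Klrb1c (NK1.1) had 3.08, 3.76 and 5.07 CPM. The T cell genes Cd3e and Cd8a had counts in wild type 3 alone, 1 and 3 of them. Il7r, the interleukin-7 receptor of lymphoid progenitors, had 0, 0.571 and 1.28 CPM. Cd4 and Cd5 stayed below 1 CPM in at least 1 library. Ly6g and Ly76 were not found in the table.

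**Figure D1:**
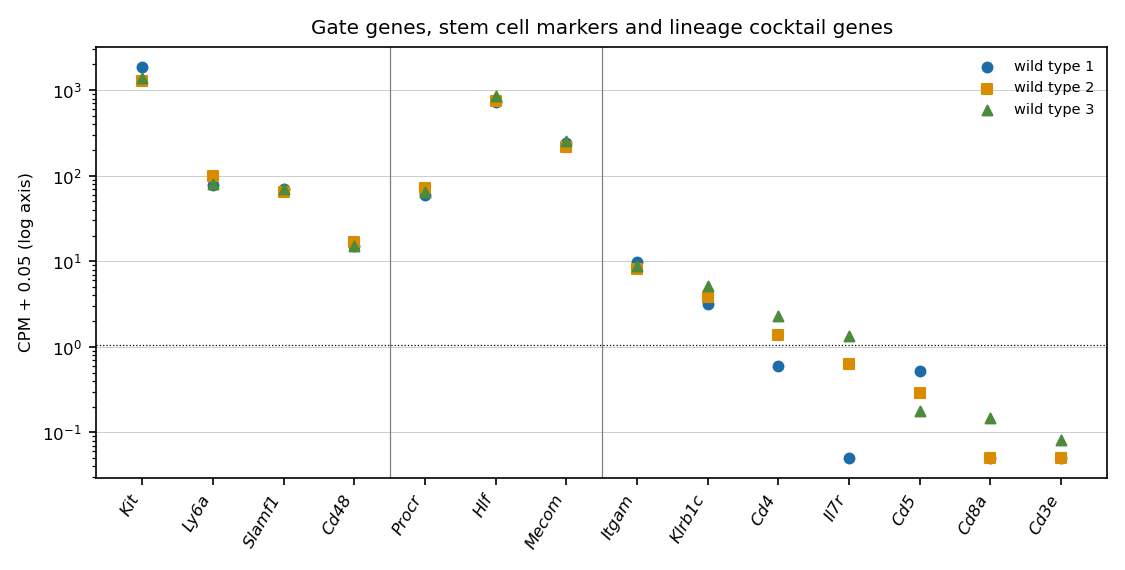
Level of the gate genes (left), the other stem cell markers (middle) and genes of common lineage cocktails (right) in each wild type library, as CPM + 0.05 on a log axis; each point is 1 library and the dotted line marks 1 CPM. Kit, at 1275 to 1891 CPM, and Hlf, at 721 to 847, lie highest, and Cd48, at 15.1 to 16.5, lies above the lineage genes plotted.

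Promoter sequences show how differently these genes are built. The 300 bases from 250 before to 50 after the transcription start are given for 2 stem cell markers, Hlf and Slamf1, for the replication helicase subunit Mcm6 and for the neutrophil granule gene Ngp, whose results follow. They are RefSeq's, on build GRCm38.p6, 5′ to 3′ on the gene's strand: Hlf at chr11:90390868-90391167 (minus strand), Slamf1 at chr1:171766882-171767181 (plus), Mcm6 at chr1:128359656-128359955 (minus) and Ngp at chr9:110419558-110419857 (plus). Capitals mark CG dinucleotides, the sites of DNA methylation.
Hlf: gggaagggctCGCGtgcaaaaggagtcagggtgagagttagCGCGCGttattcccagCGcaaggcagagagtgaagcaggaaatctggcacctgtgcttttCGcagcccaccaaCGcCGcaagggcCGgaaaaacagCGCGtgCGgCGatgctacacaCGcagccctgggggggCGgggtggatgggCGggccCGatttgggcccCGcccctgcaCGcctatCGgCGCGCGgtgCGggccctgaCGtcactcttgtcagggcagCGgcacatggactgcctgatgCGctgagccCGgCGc
Slamf1: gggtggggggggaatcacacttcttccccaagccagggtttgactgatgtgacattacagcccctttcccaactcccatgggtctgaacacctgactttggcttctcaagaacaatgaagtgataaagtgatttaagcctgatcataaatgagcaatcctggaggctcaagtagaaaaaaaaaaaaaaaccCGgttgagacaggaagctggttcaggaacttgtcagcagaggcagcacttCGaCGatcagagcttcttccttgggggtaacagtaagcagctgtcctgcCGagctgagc
Mcm6: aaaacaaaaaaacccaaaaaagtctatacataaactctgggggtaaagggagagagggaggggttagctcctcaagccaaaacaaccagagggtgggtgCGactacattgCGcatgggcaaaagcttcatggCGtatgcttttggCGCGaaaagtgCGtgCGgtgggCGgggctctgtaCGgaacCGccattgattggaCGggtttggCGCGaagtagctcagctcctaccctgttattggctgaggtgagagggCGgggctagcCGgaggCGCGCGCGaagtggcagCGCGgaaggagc
Ngp: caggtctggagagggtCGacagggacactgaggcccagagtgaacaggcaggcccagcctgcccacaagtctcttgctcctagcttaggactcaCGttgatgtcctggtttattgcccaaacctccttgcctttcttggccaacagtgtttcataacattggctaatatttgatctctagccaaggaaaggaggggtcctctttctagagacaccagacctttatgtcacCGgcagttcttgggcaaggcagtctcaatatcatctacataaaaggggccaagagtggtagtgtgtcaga
The Hlf promoter holds 30 CG dinucleotides and that of Slamf1 holds 4, and Mcm6 and Ngp differ as widely with 21 and 3. The CpG observed to expected ratio sets the number of CG dinucleotides against the number that the content of C and G would give, and promoters in CpG islands lie at about 0.6 and above. It was 0.893 for Hlf, 0.223 for Slamf1, 0.935 for Mcm6 and 0.156 for Ngp.

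A promoter was found for 17680 genes, 75.7% of the table. The first listed promoter was used for each gene, and 14934 genes had only 1. Below 10 CPM fewer than 80% of genes had one, so a comparison of promoters from the lowest to the highest levels is void, and only levels and lists with at least 80% are described. Of 2185 genes at 100 CPM or more, 79.5% had a ratio of at least 0.6, and of 5442 genes at 10 to 100 CPM 76.6% had. The stem cell genes were mixed. Among the 5 markers 3 had a ratio of at least 0.6, namely Mecom (1.02), Hlf and Kit (0.621), while Procr (0.528) and Slamf1 did not. Mecom and Kit each have 2 listed promoters, and the ratio of the second was not read. Among 24 of the 30 other stem cell genes 7 had, and their median was 0.27. The ratio was 0.254 for Gpr56, for the first of its 2 listed promoters, and 0.374 for Cd34, both stem cell surface genes. The replication genes had 20 of 26 at or above 0.6, with a median of 0.905, and the mature neutrophil genes 0 of 20, with a median of 0.154. The replication share is near that of all genes at 10 to 100 CPM. The hexamer TATAAA, on either strand, was found in 6.20% of promoters at 100 to 1000 CPM and 6.32% at 10 to 100 CPM, and among the mature neutrophil genes in 9 of 20. The neutrophil list had a median of 5.23 CPM, below these levels, so it is not matched to them in level. The 7 letters CCGGAAG, which hold the core that ETS factors bind, were found on either strand in 21.2% of promoters at 100 to 1000 CPM and 21.3% at 10 to 100 CPM, and in 0 of the 5 stem cell markers. Over all 17680 promoters, at any level, 48.9% had a ratio of at least 0.6, 13.0% held TATAAA and 11.9% held CCGGAAG. These shares are given as background and not as a comparison. These are matches of letters in a window, not sites shown to be used.

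**Figure D2:**
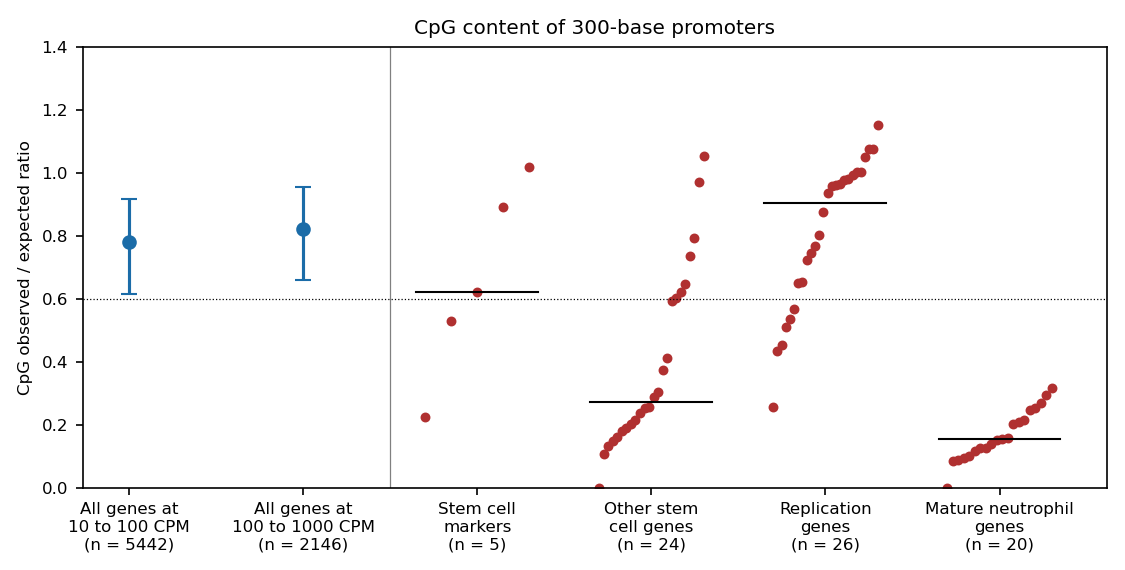
CpG observed to expected ratio of 300-base RefSeq promoters. Left, the median (points) and quartiles (bars) over all genes at 10 to 100 and 100 to 1000 CPM; right, 1 point per member of 4 gene lists, with a black line at the list's median and a dotted line at 0.6. Replication genes lie high, with a median of 0.905, and mature neutrophil genes low, with a median of 0.154, while stem cell genes spread over both ranges.

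Reads were spread over many genes. The 10, 100 and 1000 genes highest by mean CPM took 5.57 ± 0.643%, 15.3 ± 0.565% and 45.0 ± 0.0593% of each library's counts (SD, n = 3). There were 49 genes at a mean of 1000 CPM or more, 2712 at 100 or more and 9432 at 10 or more. The highest entry was the ribosomal RNA precursor Rn45s, with 7554, 9014 and 18675 CPM, and wild type 3 held more than the other 2 libraries. Actb (cytoplasmic actin) and Eef1a1 (a translation elongation factor) followed, with the nuclear long non-coding RNA Malat1. Most of the 20 highest were of this general kind, among them Hsp90ab1, Ubb, Tubb5, Rpl4, Rps3, Rplp0, Eef2, Eif4g2, Cnbp, H3f3b, Gnb2l1 and Ywhae. Lars2 and B2m, the light chain of MHC class I, were also among them.

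Car2 and Gpr56 were among the 20 without being general housekeeping genes. Car2, a carbonic anhydrase best known from red cells, had 5656, 5764 and 4839 CPM, and at 3031 CPM per kb it ranked 3rd of all genes after Actb, at 5792, and Eef1a1. Gpr56, an adhesion receptor now named Adgrg1 that is high in stem cells, had 4559, 4078 and 4251 CPM and ranked 12th per kb with 1101. The highest library was 1.19-fold above the lowest for Car2 and 1.12-fold for Gpr56. Only 56 of the 100 highest genes by CPM were among the 100 highest per kb, so a rank by CPM partly orders genes by length. The 10 highest per kb also included the short Mir682, with 96 exon bases. Of 20403 genes annotated as protein coding 11327 were detected, and of 1701 long non-coding RNA genes 335. Among these, Kcnq1ot1, an imprinted antisense RNA, had 743, 774 and 732 CPM but, over 93092 exon bases, 8.05 CPM per kb. Gas5, a host of small nucleolar RNAs, had 566, 712 and 708 CPM, or 778 CPM per kb. The kit does not mark strand, so Kcnq1ot1 reads cannot be told from those of the gene it overlaps.

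Among 30 other genes known from stem cell work 28 were detected, against 50.7% of all genes. Among the surface proteins Cd34 had 520, 412 and 383 CPM, Esam 265, 205 and 211, and Cd27, a TNF receptor family member, 183, 183 and 145. Abcg2, the transporter behind the side population, had 250, 217 and 202 CPM. Tek, the angiopoietin receptor, had 145, 97.7 and 103 CPM. Flt3, which marks multipotent progenitors more than stem cells, had 99.8, 81.1 and 82.0 CPM, or 24.0 CPM per kb, about the same as Tek with 24.5. Fgd5 was at 51.2, 60.5 and 60.9 CPM, and Hoxb5 at 10.5, 9.61 and 7.72. Meg3, a non-coding RNA of the imprinted Dlk1 locus, was not detected: it had 0.609, 6.59 and 13.7 CPM, under 1 CPM in wild type 1 alone. Prom1 had 2.03, 0.773 and 1.63 CPM.

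The surface set held 222 genes in 10 families, taken whole, and 138 (62.2%) were detected, with 17 at 0 counts. The share was 50.7% over all genes and 55.5% over genes annotated as protein coding. Genes high per kb included the tetraspanin Cd81 with 360 CPM per kb, Kit with 289, the tetraspanin Cd9 with 216, and Il2rg, the common gamma chain, with 196. Cd34 (168), Cd24a (141), Esam, Cd27 and the integrin subunit Itgb1 (89.2) followed. Of 40 hematopoietic cytokine receptor genes 28 were detected. Besides Kit and Il2rg they included Il11ra1 (122, 114 and 116 CPM) and the G-CSF receptor Csf3r (96.5, 59.8 and 58.5 CPM). Epor, the erythropoietin receptor, had 12.8, 13.3 and 17.1 CPM, and Csf1r, the macrophage receptor, 3.18, 2.62 and 1.91. Il2ra, Il2rb and Lepr stayed below 1 CPM in each library.

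Of 30 receptors for interferons, TNF and TGF-beta ligands 20 were detected. Ifngr1 had 167, 161 and 156 CPM and Ifnar1 100.1, 93.4 and 98.9, and the type III TGF-beta receptor Tgfbr3 146, 151 and 168. Of 26 integrin subunits 19 were detected, led by Itgb1 (339, 331 and 351 CPM), Itga4 (325, 242 and 293) and the platelet subunit Itga2b (285, 230 and 154). Adhesion and homing genes were detected in 29 of 34 cases. The SLAM family had 6 of 9, and Cd84, a homophilic adhesion receptor, had 194, 169 and 152 CPM, or 27.4 CPM per kb beside 25.2 for Slamf1.

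Chemokine receptors were the sparsest surface family, with 4 of 19 detected and 4 at 0 counts. Cxcr4, the receptor that holds stem cells in the marrow, had 43.8, 44.9 and 76.0 CPM. The other families lay between. Toll-like receptors and cofactors were detected in 7 of 14 cases, with Tlr4 at 42.2, 33.5 and 31.8 CPM. Notch receptors and ligands gave 5 of 9, with Notch2 at 353, 288 and 353 CPM, and Frizzled and LRP receptors 8 of 15, with Lrp6 at 128, 115 and 124. Receptor tyrosine kinases mostly known from other tissues gave 12 of 26. Igf1r was the highest by CPM with 252, 291 and 302, while Egfr, Erbb4, Fgfr4, Ddr2 and the 3 Ntrk genes had 0 counts.

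The transcription factor set held 280 genes in 22 families, of which 158 (56.4%) were detected and 52 had 0 counts. That share is near the 55.5% of genes annotated as protein coding and the 50.7% of all genes. The highest per kb was Lmo2, a LIM scaffold of the stem cell factor complex, with 339 CPM per kb from 547, 627 and 749 CPM. Myc followed with 269 CPM per kb, from 764, 649 and 560 CPM. Myb had 233 and the ETS factor Fli1 208 CPM per kb. Meis1, a homeobox partner of HOX proteins, and Gfi1b, a repressor of red cell and platelet precursors, both had 167. Nfe2 (141), Hlf (137), Irf2 (125), Etv6 (109) and Gata2 (102) came next. Lmo2 was lowest in wild type 1 and highest in wild type 3, and Myc the reverse.

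In the GATA family Gata2 had 325, 387 and 416 CPM, Gata1 101, 112 and 126 and Gata3 59.0, 47.9 and 46.8, while Gata4, Gata5 and Gata6 had 0 counts in all libraries. All 4 core binding factors were detected, with Runx1 at 202, 233 and 256 CPM, and all 7 STAT factors, with Stat3 at 310, 252 and 271. Of the ETS factors 15 of 25 were detected, and Etv2, Fev and Spdef had 0 counts. Spi1 was not found in the table. Of the C/EBP list 4 of 7 were detected, Cebpz (157, 163 and 167 CPM), Cebpg (75.8, 53.5 and 49.6), Ddit3 (19.7, 28.2 and 30.4) and Cebpa. Cebpa, the driver of granulocyte fate, had 1.12, 1.78 and 2.14 CPM, and Cebpe, Cebpb and Cebpd were not detected. Bcl11a (243, 261 and 283 CPM) and Ikzf1 (324, 334 and 371 CPM) were the highest by CPM of the lymphoid and Ikaros lists, while Ikzf3, Ebf1, Tcf7 and Lef1 stayed below 1 CPM in each library.

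HOX genes followed their clusters. In the A cluster 7 of 11 were detected, with Hoxa10 at 38.6, 46.2 and 51.0 CPM, Hoxa9 at 23.1, 23.6 and 20.6 and Hoxa7 at 23.3, 22.9 and 21.5, and the outermost genes Hoxa11 and Hoxa13 had 0 counts. In the B cluster 3 of 10 were, namely Hoxb3, Hoxb5 and Hoxb4, the last at 3.41, 3.97 and 3.48 CPM. In the C and D clusters 0 of 9 and 0 of 9 were, with 4 and 7 genes at 0 counts. Their cofactor genes included members higher per kb, with Meis1 (1613, 1146 and 1034 CPM) at 167 CPM per kb against 14.4 for Hoxa10. The PAX family gave 1 of 9, Pax6 at 2.98, 2.65 and 1.56 CPM, and the SOX family 6 of 19, led by Sox6 at 138, 97.5 and 105. Prdm16, needed for stem cell upkeep, had 54.4, 50.1 and 50.2 CPM. Foxo1 had 48.7, 45.6 and 52.4 CPM. Foxo3, another stem cell regulator, was listed at 0.203, 0.571 and 0.0957 CPM.

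**Figure D3:**
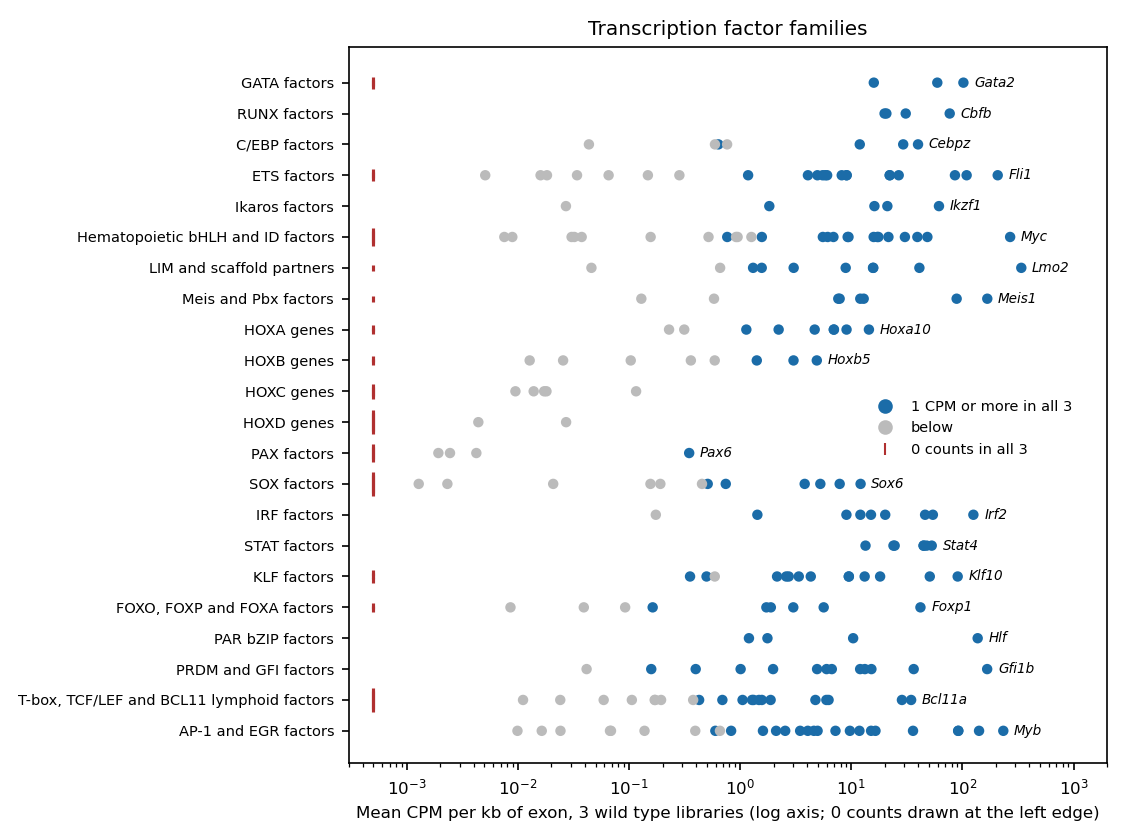
Transcription factor families in the wild type libraries: each point is 1 gene, placed by its mean CPM per kb of exon over 3 libraries on a log axis; blue genes were at 1 CPM or more in all 3 libraries, grey genes were not, and red marks stand for genes with 0 counts. The highest gene of each family with a detected gene is named; Lmo2, at 339 CPM per kb, is the highest of all, and no HOXC or HOXD gene is blue.

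Genes of differentiated blood cells were read as 9 lists, with 2 more for stroma with endothelium and for other tissues. Of the 273 genes of these lists 123 (45.1%) were detected, against 50.7% of all genes, and 44 had 0 counts. In a bulk library, few cells with much of an RNA and many cells with little of it cannot be told apart. The megakaryocyte and platelet list was detected nearly whole, with 24 of 26 and a median of 13.0 CPM per kb. Its high members included Mmrn1 (735, 442 and 507 CPM), which encodes the platelet protein multimerin, Plek (433, 345 and 288) and the chemokine Pf4 (246, 404 and 276). Vwf, the von Willebrand factor, had 235, 163 and 191 CPM and Gp9 66.9, 82.2 and 67.7. Per kb, Pf4 reached 441 CPM per kb. The list ranged widely: Ppbp (11.8, 14.1 and 7.63 CPM) had 10.3 CPM per kb and Tubb1 (2.10, 2.42 and 3.51 CPM) had 1.90, and Gp6, the collagen receptor, had 0 counts.

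Of 23 erythroid genes 17 were detected, with a median of 2.75 CPM per kb. After Car2 the highest by CPM were Hemgn (144, 114 and 104), Gata1 and Car1 (58.6, 125 and 133), a further carbonic anhydrase, which was lowest in wild type 1. Alas2, the red cell enzyme of heme synthesis, had 6.02, 5.44 and 5.36 CPM. Slc4a1, the band 3 anion exchanger, had 0.169, 0.0336 and 0.287 CPM. The globin genes Hba-a1, Hba-a2, Hbb-b1 and Hbb-b2 were listed at 0 counts, but they come in near-identical pairs and their level is uncertain for the reason given for Eno1.

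Myeloid progenitor and primary granule genes were detected in 19 of 20 cases, with a median of 18.9 CPM per kb. Srgn, a granule proteoglycan, had 806, 985 and 943 CPM, and the chaperone Calr 632, 893 and 968. Mpo (376, 325 and 220 CPM), myeloperoxidase, and Elane (152, 122 and 89.6), neutrophil elastase, were highest in wild type 1 and lowest in wild type 3. Of 28 genes of monocytes, macrophages and dendritic cells 14 were detected, led by Lyz2 (277, 316 and 370 CPM), Cd74 (450, 239 and 229) and H2-Aa (150, 56.5 and 72.9). Cx3cr1, Itgax and Siglech stayed below 1 CPM in each library, and Marco had 0 counts.

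The 3 lymphoid lists had fewer members detected than the erythroid, megakaryocyte, myeloid progenitor, mature neutrophil and monocyte lists. They had more than the list of mast cells, basophils and eosinophils, with 3 of 20. Of 28 B cell genes 8 were detected, led by the B cell receptor component Cd79b (62.5, 79.5 and 77.7 CPM), while Pax5 had 0.101, 0 and 0 CPM. Of 28 T cell genes 7 were, led by the signalling genes Lat (64.1, 65.5 and 67.5 CPM), Gata3 and Lck (19.7, 23.9 and 23.0), with Cd3d at 0.0676, 0 and 0.319 CPM. Lat also acts in platelets and mast cells. Of 20 genes of NK and innate lymphoid cells 5 were, with Nkg7 at 170, 132 and 103 CPM and Ncr1, the NKp46 receptor, at 0.0676, 0.370 and 0.128.

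Of 26 genes of stroma and endothelium 8 were detected, and Angpt1, an angiopoietin, with 1157, 970 and 978 CPM took most of that list's reads. Cxcl12, Lepr, Cdh5 and Col1a1, used as markers of niche stroma and endothelium, had means of 0.851, 0.326, 0.242 and 0.134 CPM. These low genes do not stand for the whole list. It had 7 members at a mean of 10 CPM or more, of which 2 were apart by 2-fold or more between libraries. Of 34 genes of other tissues, such as albumin and insulin, 3 were detected and 23 had 0 counts. The exceptions were Cela1 (11.7, 13.4 and 10.7 CPM), a pancreatic elastase gene, Syp (2.77, 3.02 and 2.78) and Gfap (1.59, 1.71 and 1.91).

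**Figure D4:**
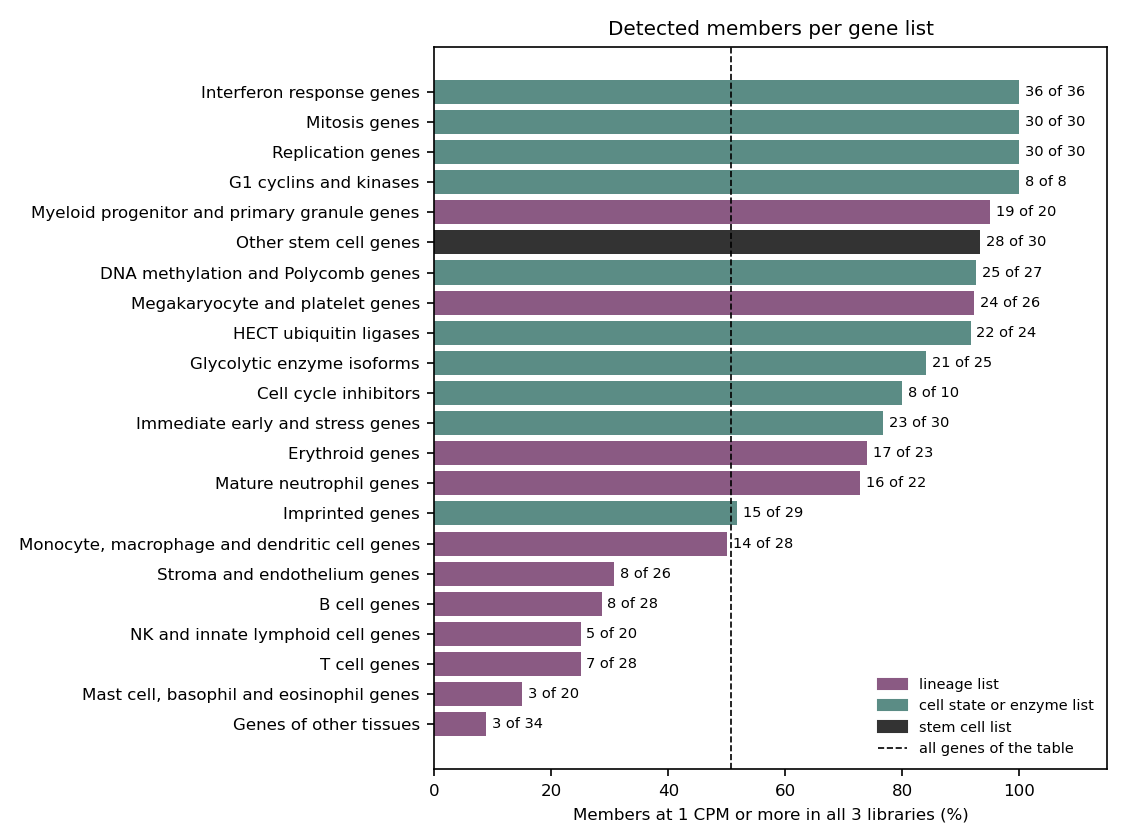
Share of each list's members at 1 CPM or more in all 3 wild type libraries, in percent, with the number of members; the dashed line is the share over all genes of the table, 50.7%. The replication and mitosis lists are at 30 of 30 and the megakaryocyte list at 24 of 26, while genes of other tissues are at 3 of 34.

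Cell cycle genes were present throughout. All 30 replication genes and all 30 mitosis genes were detected, against 50.7% of all genes. Their medians were 50.4 and 29.8 CPM per kb against 12.2 over all detected genes. Mcm6, a subunit of the replicative helicase, had 546, 659 and 565 CPM and Rrm1, the large subunit of ribonucleotide reductase, 611, 557 and 518. Top2a, topoisomerase II alpha, had 690, 606 and 617 CPM, and Mki67, which encodes the Ki-67 antigen of cycling cells, 614, 590 and 662. Each of these genes differed by less than 1.5-fold between libraries, as did 86.5% of all genes at a mean of 10 CPM or more. What share of the sorted cells was cycling cannot be read from bulk libraries.

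Inhibitors of the cycle were detected beside them, in 8 of 10 cases with a median of 8.22 CPM per kb. Cdkn1c, the p57 inhibitor of quiescent stem cells, had 10.6, 18.2 and 20.3 CPM, and Cdkn1b, which encodes p27, 34.3, 35.9 and 55.0. Cdkn2a, the Ink4a/Arf locus, had 0 counts, and Cdkn2b had 1 count in wild type 3 alone. All 8 G1 cyclins and kinases were detected. Among the D cyclins Ccnd2, with 1108, 917 and 893 CPM, was the highest per kb, at 145 CPM per kb against 26.8 for Ccnd3 and 10.6 for Ccnd1.

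Other regulators and stress programmes were also covered, and their counts stand beside 50.7% detected over all genes. Of 27 DNA methylation and Polycomb genes 25 were detected, among them Dnmt1 (487, 377 and 352 CPM), Dnmt3b (168, 170 and 187), Dnmt3a (185, 164 and 154) and Ezh2 (142, 171 and 187). Of 24 HECT-type ubiquitin ligases 22 were. Huwe1, the gene deleted elsewhere in the study, had 444, 407 and 444 CPM, or 29.6 CPM per kb. Nedd4 had 1423, 1115 and 1217 CPM, or 136 CPM per kb. All 36 interferon response genes of the list were detected. The list does not include the interferon-induced Gbp1 and Ifi44l, which had 0 counts in wild type 3. Ifitm2 had 387, 547 and 516 CPM and Ifitm3 273, 430 and 398, and wild type 1 was lowest for both. Isg15 was the lowest of the list by CPM with 2.74, 4.23 and 3.32.

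Immediate early and stress genes were detected in 23 of 30 cases, against 50.7% of all genes. Fos had 189, 192 and 198 CPM and Egr1 53.4, 79.7 and 88.9, while Atf3 and Egr2 stayed below 1 CPM. Hspa1a and Hspa1b, near-identical copies, also did. Of 29 imprinted genes 15 were detected, led by Kcnq1ot1 and Gnas (304, 475 and 506 CPM), and H19 had 0, 1.85 and 1.56 CPM and Igf2 0.101, 0.874 and 1.47. Among glycolytic enzymes 21 of 25 were detected, with Pkm (1039, 873 and 816 CPM) and Ldha (839, 975 and 893) the highest by CPM. For Ldha and its paralogue Ldhb (77.8, 109 and 99.1 CPM) wild type 2 was the highest library.

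The 3 libraries were close for most genes and far apart for a few. Of 9432 genes at a mean of 10 CPM or more, 8154 (86.5%) had their highest library within 1.5-fold of the lowest, and 184 (1.95%) were apart by 2-fold or more. The SD of log2(CPM + 0.5) over the 3 libraries (n = 3) had a median of 0.31 for genes at 1 to 10 CPM, 0.17 at 10 to 100, 0.13 at 100 to 1000 and 0.18 at 1000 or more. Counting error alone would give 0.12, 0.04, 0.02 and 0.01. The common biological coefficient of variation from edgeR was 21.9%, and 18.7% after low genes were filtered out. The least variable gene was Fam104a, at 31.4 CPM in each library to 3 digits, followed by Kif22, a mitotic kinesin, at 132 in each.

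Wild type 1 stood apart from the other 2 libraries. Without it 46 genes were apart by 2-fold or more in place of 184, and the median SD on the log2 scale fell from 0.16 to 0.086. Without wild type 3 there were 80 such genes and without wild type 2 there were 139. Across genes, which are not independent replicates, log2 CPM correlated at 0.994 between wild type 1 and 2, 0.993 between 1 and 3 and 0.995 between 2 and 3. Of the 184 genes wild type 1 was the highest library for 88 and the lowest for 73, wild type 3 for 66 and 71, and wild type 2 for 30 and 40. No pair of libraries was a repeat of the same reads, since their counts lay further apart than sampling noise, with chi-square values over degrees of freedom of 24.6, 39.7 and 56.8.

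Gene length moved with this. Genes at 10 CPM or more were divided by exon length into 5 equal bins. In the shortest bin, with a median of 1392 exon bases, wild type 1 lay a median 0.14 below the mean of the 3 libraries on the log2 scale (−0.14) and wild type 2 above it (0.11). In the longest bin wild type 1 lay above it (0.05) and wild type 2 below it (−0.06). The 66 ribosomal protein genes at 10 CPM or more, which are short, had medians of −0.32, 0.15 and 0.16. The part of length in the differences of single genes was not tested.

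Several granule genes of mature neutrophils moved together between libraries. Their list was detected in 16 of 22 cases, and its summed level was 439, 637 and 1340 CPM, 3.05-fold from the lowest to the highest library. Ngp, neutrophilic granule protein, had 166, 280 and 607 CPM. S100a8 had 32.7, 55.5 and 107 CPM and S100a9 32.5, 58.5 and 113, which together form calprotectin. Camp (26.1, 57.2 and 92.7 CPM), Ltf (43.9, 52.4 and 168) and Lcn2 (7.17, 18.6 and 47.0) were also highest in wild type 3 and lowest in wild type 1. Of the list's 9 genes at 10 CPM or more 8 were apart by 2-fold or more, against 1.95% of all such genes. The myeloid progenitor and primary granule list summed to 2647, 2931 and 2731 CPM, highest in wild type 2. Padi4, at 59.4, 45.9 and 40.6 CPM, was the exception among the 9 neutrophil genes at 10 CPM or more. Of all 16 detected members of the neutrophil list, 12 were highest in wild type 3 and 4 in wild type 1. A lineage sort is meant to remove mature neutrophils, and their part in these reads was not tested.

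Of 54 lists with a summed level of 10 CPM or more, 4 were apart by 1.5-fold or more between libraries. Beside the neutrophil list these were the chemokine receptors, the B cell genes, with 96.1, 113 and 146 CPM, and the list of mast cells, basophils and eosinophils, with 87.3, 85 and 27.7 CPM. The chemokine receptors, 1.51-fold apart, came to 1.48 with TMM and 1.47 with DESeq2 size factors, and the B cell genes, 1.52-fold apart, to 1.49 and 1.48, so neither reaches 1.5-fold under those scalings. The mast cell, basophil and eosinophil list had 3 of 20 members detected, Cpa3, Hdc and Ccr3. Its spread came from eosinophil granule genes: Prg2, major basic protein, had 52.6, 51.4 and 0.415 CPM and Epx, eosinophil peroxidase, 6.69, 4.74 and 0.0319. Both were near 0 in wild type 3, the library highest for neutrophil granule genes. Cpa3, a mast cell protease gene, had 9.09, 9.54 and 10.3 CPM and did not share that pattern.

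Of the 15 genes with the widest spread some had 0 counts in a library, and others were at 1 CPM or more in all 3. Gbp1 had 48.2, 88.8 and 0 CPM and Ifi44l 32.0, 74.8 and 0, both interferon-induced genes. H2-Ea-ps, an MHC class II pseudogene, had 91.5, 0 and 31.1 CPM. AI506816 had 67.9, 68.4 and 1.28 CPM, Msh5, a meiotic mismatch repair gene, 75.2, 7.90 and 86.9, and Ctse, the protease cathepsin E, 342, 54.5 and 650. Gdpd3 (33.0, 2.86 and 1.98 CPM), Tmem87a (84.3, 16.2 and 16.6) and Phf11d (24.3, 5.91 and 4.85) were high in wild type 1 alone. Of the 15 genes of widest spread 7 were lowest in wild type 2, 7 in wild type 3 and 1 in wild type 1. Ifi44, a neighbour of Ifi44l, had 97.9, 125 and 60.4 CPM and was also lowest in wild type 3. The list of 36 interferon response genes, which does not include Gbp1 and Ifi44l, summed to 3929, 4253 and 3933 CPM. Of the 31 of them at 10 CPM or more 2 were apart by 2-fold or more, against 1.95% of all such genes. Whether these differences have a common cause was not tested.

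Several of these genes lie in the MHC region, which was singled out after its values were seen. Of 78 genes of that region at 10 CPM or more 12 (15.4%) were apart by 2-fold or more, against 1.95% of all such genes, and 8 of the 12 were lowest in wild type 2. H2-T3 had 19.8, 0.470 and 13.2 CPM, H2-Q4 24.1, 2.59 and 19.2, H2-K2 30.1, 7.26 and 21.4 and the zinc finger gene Zfp57 63.5, 12 and 23.8. The class II genes H2-Ab1 (49.3, 21.2 and 25.1 CPM) and H2-Eb1 (37.1, 15.3 and 13.5) were highest in wild type 1. The H2 genes are closely similar to each other, so their counts are uncertain. Msh5, Zfp57, Prrc2a and Lst1, also among the 12, are not H2 genes. Msh5 and Zfp57 were lowest in wild type 2. Prrc2a (30.8, 66.7 and 71.4 CPM) and Lst1 (7.40, 16.8 and 15.6) were lowest in wild type 1. The cause of the spread in this region was not tested. With the MHC region included, 41 of 182 placed genes with a 2-fold spread (22.5%) had another such gene within 5 neighbours on either side. Of 9217 other genes 1541 (16.7%) had. The 41 hold H2-Aa, H2-Ab1, H2-Eb1, H2-Ea-ps, H2-Q4, H2-K2, Prrc2a and Lst1 of the MHC region. They also hold the neighbours Xlr3b, Xlr4a, Xlr4b and Xlr4c. The share without these genes was not computed, so it does not show grouping outside the MHC region.

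**Figure D5:**
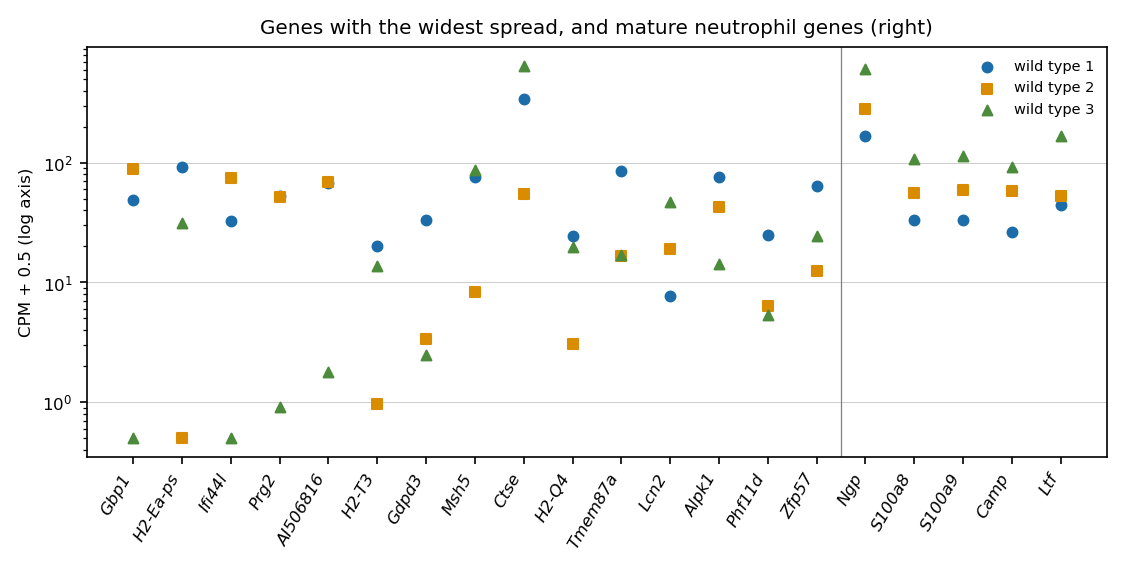
Level in each wild type library of the 15 genes with the widest spread among those at a mean of 10 CPM or more (left of the grey line, widest first) and of 5 mature neutrophil genes (right), as CPM + 0.5 on a log axis; each point is 1 library. Gbp1 and Ifi44l have 0 counts in wild type 3 and H2-Ea-ps in wild type 2, and the neutrophil genes lie highest in wild type 3.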

How the data were processed

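RNA was measured by sequencing in sorted mouse bone marrow stem cells. The protocol is unstranded, with SMARTer cDNA and NEBNext library preparation, per the labels. Aligner and counter names (TopHat and HTSeq, beside SAMtools and edgeR) and the mm9 build come from the submitters' processing notes, which state no version. The deposited table holds raw counts per gene symbol. A second table deposited by the authors holds CPM for 12457 genes and equals the CPM computed here (largest relative difference 5.07e-15). The sources used here give neither the annotation nor the treatment of multiply matching reads.

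The 3 wild type libraries were scaled by their totals of 29579400, 29758051 and 31338586 counts, so that 1 CPM is about 30 reads and values below 0.1 CPM rest on 3 reads or fewer. Depth limits the precision of low genes: reads carry no molecular identifiers, so floors cover counting error only. There is 1 group, so no test was run. Spread is the SD of log2(CPM + 0.5), and edgeR 4.0.16 (R 4.3.3) gave the dispersion with an intercept only, a step tested on simulated data. CPM per kb used merged exons of GENCODE M21 (22996 genes), in place of coding length. Members and gene lists were chosen with earlier results of these data known. Named genes are the 20 highest by CPM, the 15 highest of the transcription factor and surface sets, the 15 most and 10 least variable, all gate, marker and cocktail genes, Huwe1, and per list the 4 highest with up to 3 at 0 counts. Other named genes were chosen after their values were seen. Promoters were matched by symbol to RefSeq, and the first listed was used. Alternatives were TMM, DESeq2 1.42.0 size factors, other detection and level minimums, other priors, length scaling and each library left out. Some genes under these rules are not reported here.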

Additional observations from a re-analysis of the deposited data

How the results depend on the processing

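No paired analysis was possible because the 3 libraries form 1 group and no test was run. TMM and DESeq2 size factors left the count of detected genes at 11839 and changed the count of genes apart by 2-fold from 184 to 190 and 191. Of 225 counts of detected members in 25 lists 20 moved by over 1.5 times, 19 of them with another detection rule. Ranking per kb of merged exons or of the longest transcript kept 56 and 55 of the 100 highest genes, a change that follows from the division by length. The count of genes apart by 2-fold ranged from 46 to 139 with a library left out, and the median SD on the log2 scale from 0.086 to 0.16, lowest without wild type 1; the cause was not tested. With a minimum mean of 1 CPM the count was 1015 and with 50 CPM it was 44, since more or fewer genes were counted. Rankings by coding length and by genes with both a promoter and a protein entry were not run. Depth limits genes under about 1 CPM.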
